A study of Homo sapiens with 19 samples.

Results

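The 8 genes described here encode protein kinases with annotated alternative exons: MAP4K4, TNIK, MINK1, SLK and STK3 of the STE20 family, MAP3K7 (TAK1), PTK2 (focal adhesion kinase, FAK) and AAK1. They were chosen by name, with earlier results of these data known, out of 22760 genes with junction reads. All their cassette exons, which are internal exons that a transcript can include or skip, were taken by annotation. GENCODE 29 gave 38 such exons in the 8 genes, of 37990 in all genes, and 22 of the 38 had enough reads and variable enough inclusion to be tested, of 6540 in all.

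The series holds 19 libraries of ribosome-depleted RNA from established human cell lines. A375, a melanoma line, gave 1 library each of total, nuclear and cytoplasmic RNA; the HEK293 embryonic kidney line and the HUES66 embryonic stem cell line gave 1 wild-type library each. The other 14 were HUES66 libraries treated with 1 ug/ml doxycycline, in a study of knockdown by Cas13d, an RNA-guided enzyme that cuts RNA. The target was RBFOX2, a splicing factor: 3 libraries had a knockdown of all its transcripts (total KD), 4 a knockdown of the N-short isoform, 4 a knockdown of the N-long isoform and 3 were controls. They fall into 4 sets, 24 hr replicate 1 (without a control), 24 hr replicate 2 (without a total KD), 48 hr and 96 hr, with 1 library of each group in a set. For wild-type HUES66 neither doxycycline nor a time is labelled, and its description carries the library name used for controls. Nothing in the labels says whether libraries came from separate cultures, so p-values measure the spread between these libraries, which may be technical.

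MAP4K4, TNIK and MINK1 are close relatives that act upstream of JNK signalling and on the cytoskeleton. SLK regulates adhesion turnover and microtubules, STK3 (MST2) is a core kinase of the Hippo pathway, MAP3K7 relays cytokine signals to NF-kappaB, JNK and p38, PTK2 signals from integrins, and AAK1 phosphorylates the AP-2 adaptor of clathrin-coated pits. Splicing factors of the RBFOX family bind introns beside alternative exons and can raise or lower their inclusion depending on where they bind.

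Of the exons on which the results turn, those of SLK, MAP3K7, MAP4K4, TNIK and MINK1 are printed here, and those of PTK2 are given by position only. They stand on the strand of the transcript, 5′ to 3′, from the GENCODE 29 transcripts on GRCh38, with the exon in capitals and 30 bases of the exon before and after it in that transcript in lower case. They show how small the inserted pieces are and where they enter the message. SLK 93 nt, on chromosome 10 from 104010816 to 104010908, plus strand, is the exon that differed most between cell lines.
SLK 93 nt: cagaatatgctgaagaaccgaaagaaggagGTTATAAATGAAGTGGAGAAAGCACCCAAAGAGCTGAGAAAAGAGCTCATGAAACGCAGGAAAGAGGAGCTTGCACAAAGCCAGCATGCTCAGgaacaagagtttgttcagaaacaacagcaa
Both MAP3K7 exons are read from the minus strand (chromosome 6), the 81 nt exon from 90544552 to 90544632 and the 116 nt exon from 90518447 to 90518562.
MAP3K7 81 nt: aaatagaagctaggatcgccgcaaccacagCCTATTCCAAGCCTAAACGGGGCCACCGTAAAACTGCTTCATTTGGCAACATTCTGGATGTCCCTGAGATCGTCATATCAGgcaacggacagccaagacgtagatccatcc
MAP3K7 116 nt: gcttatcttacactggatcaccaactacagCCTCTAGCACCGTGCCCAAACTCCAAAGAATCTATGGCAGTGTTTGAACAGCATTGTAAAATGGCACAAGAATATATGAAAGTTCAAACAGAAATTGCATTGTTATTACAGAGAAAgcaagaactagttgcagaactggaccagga
The 3 MAP4K4 exons lie on the plus strand of chromosome 2, the 231 nt exon from 101863821 to 101864051, the 9 nt microexon from 101868029 to 101868037 and the 192 nt exon from 101871494 to 101871685.
MAP4K4 231 nt: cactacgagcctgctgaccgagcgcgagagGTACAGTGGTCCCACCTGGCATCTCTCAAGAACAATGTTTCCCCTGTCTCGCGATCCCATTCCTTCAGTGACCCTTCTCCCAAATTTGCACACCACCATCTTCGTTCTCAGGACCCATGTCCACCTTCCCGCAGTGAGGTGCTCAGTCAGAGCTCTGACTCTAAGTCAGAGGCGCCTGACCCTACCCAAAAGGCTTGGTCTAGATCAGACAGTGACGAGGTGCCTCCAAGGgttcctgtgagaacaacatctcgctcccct
MAP4K4 9 nt: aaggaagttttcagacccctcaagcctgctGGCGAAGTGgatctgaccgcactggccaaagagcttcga
MAP4K4 192 nt: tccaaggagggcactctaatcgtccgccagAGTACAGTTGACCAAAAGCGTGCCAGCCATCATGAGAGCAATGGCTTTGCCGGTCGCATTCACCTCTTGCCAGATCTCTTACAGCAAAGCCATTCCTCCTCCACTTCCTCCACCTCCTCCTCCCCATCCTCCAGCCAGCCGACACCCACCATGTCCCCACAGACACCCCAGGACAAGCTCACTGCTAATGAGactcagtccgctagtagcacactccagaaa
The TNIK 24 nt microexon, also minus strand, spans 171107183 to 171107206 of chromosome 3. MINK1 lies on the plus strand of chromosome 17 and has a 24 nt exon from 4893286 to 4893309 and a 111 nt exon from 4892402 to 4892512.
TNIK 24 nt: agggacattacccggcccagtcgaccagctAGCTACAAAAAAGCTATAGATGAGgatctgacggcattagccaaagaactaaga
MINK1 24 nt: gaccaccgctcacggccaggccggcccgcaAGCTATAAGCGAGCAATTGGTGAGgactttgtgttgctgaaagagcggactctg
MINK1 111 nt: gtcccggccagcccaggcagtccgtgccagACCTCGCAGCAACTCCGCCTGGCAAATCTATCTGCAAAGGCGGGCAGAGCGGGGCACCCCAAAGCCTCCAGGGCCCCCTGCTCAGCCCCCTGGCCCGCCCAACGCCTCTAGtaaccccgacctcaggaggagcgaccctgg
The TNIK and MINK1 microexons have the same base at 17 of 24 positions. The 30 bases after the TNIK microexon match those after the MAP4K4 9 nt microexon at 24 of 30 positions, against 6 of 30 for TNIK and MINK1. The 30 bases before it match at 16 of 30 with MAP4K4 and 15 of 30 with MINK1. Of the 22 tested exons, 15 (68.2%) had a length that is a multiple of 3, beside 46.8% of all 6540 tested exons. In a coding exon such a length keeps the reading frame whether the exon is in or out. Both shares include non-coding exons, since 18 of the 22 and 5318 of the 6540 are coding.

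The gene with most cassette exons was PTK2, with 20, of which 9 were tested. All 4 exons of STK3 failed the filter on inclusion or reads, as did 1 of the 3 in MINK1. In all, 5 of the 16 untested exons had a mean under 20 reads, 5 had a pooled inclusion under 2% and 6 over 98%. Junction reads numbered 9622841 to 14625040 in the 14 treated libraries, and over all 19 from 6499183 to 27937149. RBFOX2 itself measured 126 to 134 CPM (junction read counts scaled to library size) in controls and 114 to 124 with N-short KD. With N-long KD it was 77.9 to 90.7 and with total KD 50.7 to 81.8, so all 3 knockdown groups lay below every control, the N-short group by the smallest margin.

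The question put first was how these exons differ between cell types. Of 27 member exons with at least 20 reads in each of A375 total, HEK293 and HUES66 wild type, 6 differed by 20 points or more between any 2 lines, beside 4.78% of 11725 exons over all genes; since the genes were chosen with earlier results known, nothing is read from that difference. There is 1 library per line, so each value carries a 95% Wilson interval that covers counting error only, and no test was made.

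SLK 93 nt had no inclusion read among 79 in A375, which allows an inclusion of up to 3.80%, and none among 67 nuclear or 98 cytoplasmic A375 reads. It was included in 2.20% of HEK293 reads (0.605 to 7.66%) and 86.9% of HUES66 wild-type reads (79.8 to 91.8%). All 14 treated HUES66 libraries lay between 75.8% and 96.2%, so the stem cells were separate from both other lines. SLK junction reads ran the other way, at 172 CPM in A375, 189 in HEK293 and 87.8 in HUES66 wild type.

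Both 9 nt microexons were also highest in the stem cells. MAP4K4 9 nt stood at 26.4% in A375 (19.5 to 34.6%), 20.3% in HEK293 (12.9 to 30.4%) and 65.2% in HUES66 wild type (60.6 to 69.6%), with 61.4% to 78.9% in the 14 treated libraries. PTK2 9 nt, on chromosome 8 from 140669727 to 140669735, stood at 8.33% (3.29 to 19.6%), 1.75% (0.310 to 9.29%) and 50% (45 to 55%), with 38.2% to 64.6% in the treated libraries. For both exons the intervals of A375 total RNA and HEK293 overlap each other and lie below that of HUES66. In A375 cytoplasmic RNA PTK2 9 nt stood at 15.6% of 192 reads (11.2 to 21.4%), above the HEK293 interval. In nuclear RNA it stood at 8.82% of 34 reads (3.05 to 23.0%), which overlaps that interval.

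MAP4K4 192 nt was instead lowest in the stem cells, at 42.9% in A375 (35.6 to 50.4%), 35.1% in HEK293 (26.9 to 44.2%) and 17.4% in HUES66 wild type (14.6 to 20.5%). In 2 exons HEK293 had the lowest value. PTK2 167 nt, from 140879471 to 140879637, measured 57.9% in HEK293 (46.7 to 68.4%), 76.7% in A375 (65.8 to 84.9%) and 81.3% in HUES66 wild type (77.2 to 84.8%). Its HEK293 interval overlaps that of A375 and lies below that of HUES66 wild type. The treated HUES66 libraries ran from 68.1% to 84.8%, and the lowest of them lies within the HEK293 interval. MINK1 111 nt was included in all 32 reads of A375 total RNA and all 106 HUES66 wild-type reads but in 72% of 25 HEK293 reads (52.4 to 85.7%). The A375 fractions gave 94.9% of 117 cytoplasmic reads (89.3 to 97.6%) and 92.3% of 26 nuclear reads (75.9 to 97.9%). The nuclear interval overlaps that of HEK293.

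**Figure D1:**
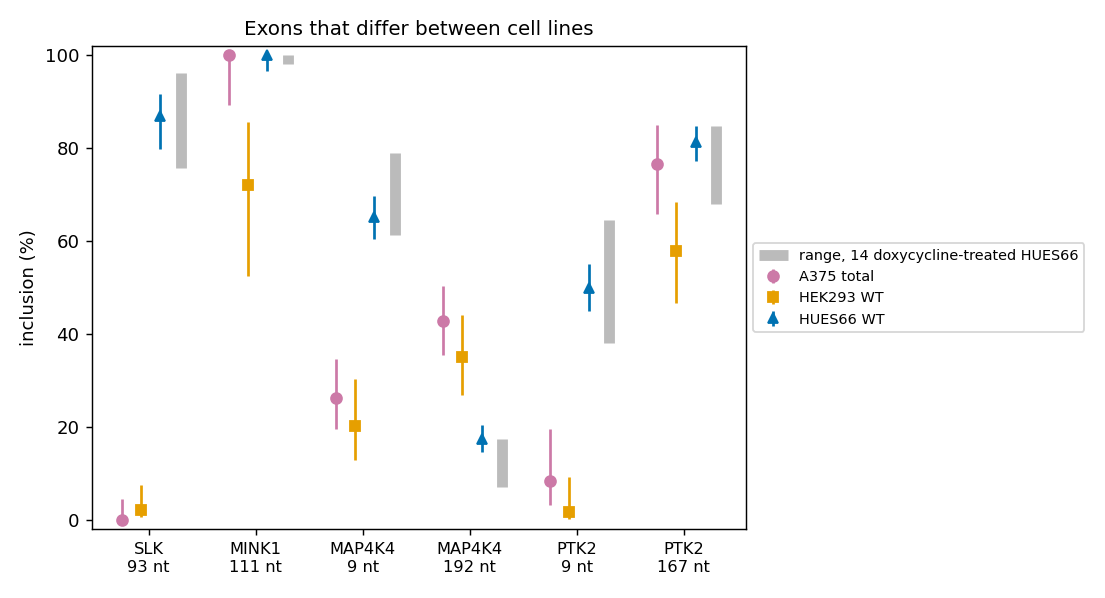
Percent inclusion (vertical axis) of the 6 exons that differed by 20 points or more between lines, with 95% Wilson intervals for single libraries and grey bars for the range of the 14 treated HUES66 libraries. SLK 93 nt runs from 0% in A375 to 86.9% in HUES66 wild type, and only MAP4K4 192 nt is lowest in HUES66.

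Gene levels also varied by line. TNIK was 2.74 times as high in HUES66 wild type as in HEK293 (exact 95% interval 2.52 to 2.97) and 1.87 times as high as in A375 (1.74 to 2.02). PTK2 was 2.34 times (2.22 to 2.46) and 1.95 times (1.85 to 2.05) as high in the same comparisons. These intervals cover counting error of single libraries only. In the treated HUES66 libraries, scaled to library size alone, TNIK ran from 127 to 236 CPM, beside 105 in A375 and 72.3 in HEK293. PTK2 ran from 430 to 575 CPM in them, beside 227 in A375 and 189 in HEK293. SLK, STK3 and AAK1 were lower in HUES66 wild type than in both other lines, with ratios to A375 of 0.512, 0.551 and 0.664. The treated libraries ran from 68.0 to 105 CPM for SLK and from 32.2 to 50.6 for AAK1, below both other lines. For STK3 they ran from 24.9 to 43.0 CPM, beside 38.3 in HEK293, so not all HUES66 libraries were below that line. MAP4K4 was close in HUES66 wild type and A375 (ratio 1.04, 1.01 to 1.077), with 441 to 601 CPM in the treated libraries beside 557 in A375. MAP3K7 was highest in HEK293 at 183 CPM and MINK1 was highest in A375 at 148 CPM.

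Markers bore out the lines in part. Pluripotency genes summed to 4046 CPM in HUES66 wild type, against 10.6 in A375 and 50.9 in HEK293, with SOX2 at 0 throughout because it has no intron to count. The melanoma and neural crest list summed to 694 CPM in A375, 20.2 in HEK293 and 116 in HUES66, with MLANA and TYR at 0 in A375. The HEK293 list summed to 80.8 CPM in HEK293 and 43.6 in A375.

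Between the A375 fractions, 28 member exons had at least 20 reads in each, and the Wilson intervals overlapped in all 28. The widest gaps were 24.6 points for TNIK 24 nt, higher in the nucleus at 66.7% of 21 reads against 42.1% of 57, and, for PTK2 89 nt, 36.4% in the nucleus against 54.3% in the cytoplasm, a difference of -18.0 points. With all junctions at or over the PTK2 exon counted, the cytoplasmic value was 43.9% and the difference -9.79 points. Overlap of separate intervals is not a test of a difference, and no test was made between the fractions, so equal inclusion is not shown. By gene, the ratio of nuclear to cytoplasmic CPM was 2.08 for SLK (1.93 to 2.24), 1.78 for TNIK (1.63 to 1.95), 1.44 for STK3 and 1.20 for AAK1. It was 0.757 to 0.853 for MINK1, MAP4K4, MAP3K7 and PTK2, beside a median of 0.931 over 11859 protein-coding genes. The labelled nuclear library was not richer in spliced lincRNA and antisense genes, whose median ratio was 0.724 over 510 genes, so a nuclear direction is that of the library labelled nuclear.

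The second question was whether RBFOX2 knockdown changed these exons. Fitted with edgeR's quasi-likelihood test over all tested exons, 1 of the 22 member exons passed an adjusted p of 0.05 in any knockdown comparison: PTK2 9 nt, which was higher in N-long KD. The background in that comparison was 0.596% of tested exons. Total KD gave 0 of 22 (background 1.38%), and so did N-short KD (0.0153%) and the comparison of N-long with N-short KD (0.428%). At an unadjusted p under 0.05 these had 5, 2 and 1 exons, and limma on log2 ratios also called 0 in each.

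PTK2 9 nt was included in 42.3%, 38.2% and 56.6% of control reads at 24 hr, 48 hr and 96 hr. N-long KD gave 56.3% and 58.4% in the 2 replicates of 24 hr, 55.5% at 48 hr and 64.5% at 96 hr. Within sets N-long KD was higher by 13.7 ± 5.13 points (SD, n = 3 sets), in 3 of 3 sets, though its lowest library lies below the highest control. The log2 odds ratio was 0.75 ± 0.19 (SE), with an edgeR adjusted p of 0.0380. This call was lost in 10 of 14 alternative fits, with adjusted p from 0.00622 to 0.800 over all of them; limma gave 0.800 and leaving out the 24 hr control gave 0.589.

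The same exon in total KD measured 64.6%, 50.6% and 50% at 24, 48 and 96 hr, and its difference from control changed sign between the 2 shared sets, at 2.90 ± 13.5 points (SD, n = 2). Its log2 odds ratio was 0.64 ± 0.21, with an edgeR adjusted p of 0.163. That fit also used the 24 hr total KD library, whose set has no control and which the points leave out. The exon passed when the 96 hr control (0.0433) or the 96 hr total KD library (0.00299) was left out. N-short KD measured 47.6% and 59.7% in the 2 replicates of 24 hr, 45.7% at 48 hr and 59.5% at 96 hr, higher than control by 9.23 ± 7.44 points in 3 of 3 sets, with an edgeR adjusted p of 1.00. In the authors' deposited table for N-long KD the exon was higher than control by 11.1 points at 24 hr, 17.2 at 48 hr and 9.0 at 96 hr, with adjusted p of 1.00, 0.474 and 0.937. Over all member events in the authors' deposited tables, 0 of 289 had an adjusted p under 0.05.

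PTK2 167 nt had the smallest adjusted p in total KD, at 0.124 in edgeR. It measured 73.5% against 82.5% in control at 48 hr and 68.1% against 78.9% at 96 hr, a difference of -9.90 ± 1.31 points (SD, n = 2 sets). The 24 hr total KD library, whose set has no control, measured 80.2%, between the 78.8% and 84.8% of the other libraries of that set. In N-long KD the difference was 0.164 ± 0.955 points (n = 3). Outside these genes, the exons whose inclusion over the 14 libraries was most like it were UGGT1 24 nt (Pearson r 0.794), PROM1 69 nt (0.792) and ERI3 278 nt (0.789). For PTK2 9 nt they were HACL1 81 nt (0.876), NEPRO 670 nt (0.840) and LARP1B 141 nt (0.839). These are the top of a search of 6517 exons and are a description only, since the libraries share sets.

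The median absolute difference over the 22 exons was 2.43 points for total KD, beside 2.39 over all tested exons. For N-short KD it was 1.67 beside 1.85, and for N-long KD 1.31 beside 1.89. SLK 93 nt differed by -1.45 ± 12.6 points in total KD (n = 2) and -0.336 ± 1.61 in N-long KD (n = 3). MAP4K4 9 nt differed by -9.27 ± 5.35 points in total KD (n = 2), with an edgeR adjusted p of 0.873. Each of these differences compares libraries with the control of their own set, whereas the test fitted all 14 libraries, including those of the set without a control. Points and test estimates can therefore differ, and for SLK 93 nt in total KD the log2 odds ratio was 0.66 ± 0.58 (SE), opposite in sign. Neither exon was called in these comparisons, and exons without a call cannot be taken as unchanged. AAK1 96 nt ranged from 0 to 21.2% over the 14 libraries on 15 to 33 reads, TNIK 165 nt from 75.9% to 100% and TNIK 87 nt from 0 to 13.6%. MINK1 116 nt stayed at or below 6.12%. In PTK2 the 63 and 138 nt exons ranged from 92.1% to 100%, the 319 and 58 nt exons from 3.90% to 18.9%, and the 314 and 78 nt exons reached at most 7.27%.

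**Figure D2:**
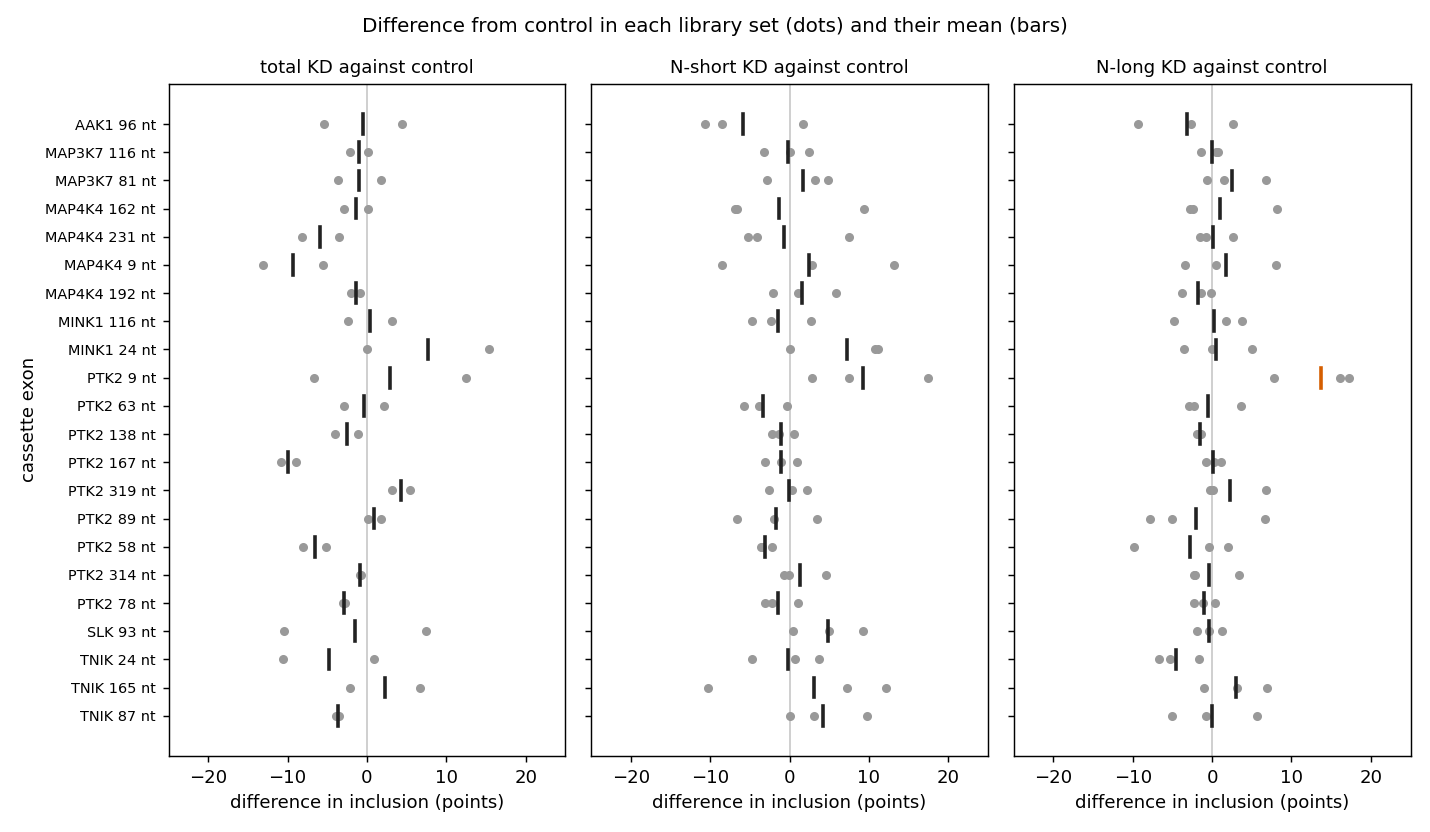
Difference in percent inclusion from the control of the same set (horizontal axis, points) for the 22 tested exons, with 1 dot per set and a bar at the mean; the orange bar passed the adjusted p. PTK2 9 nt in N-long KD has all 3 sets above 0.

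None of the 8 genes passed at gene level in any knockdown comparison with edgeR or DESeq2. The background for total KD was 2.2% of 13628 genes and for N-short KD 0%. For N-long KD it was 0.022%, and for N-long against N-short KD 0.0147%. In total KD 1 member had an unadjusted p under 0.05, SLK, with a log2 change of -0.15 ± 0.06 (SE) and an edgeR adjusted p of 0.244; in the other 3 comparisons 0 had one. Over the 8 genes log2 changes ran from -0.15 to 0.03 for total KD, from -0.03 to 0.04 for N-short KD and from -0.06 to 0.05 for N-long KD.

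Neighbouring genes of the same pathways were followed in 6 lists of 121 genes, of which 117 were tested. In total KD 2 rose and 1 fell, which is 2.56% of the listed genes and near the 2.2% of all genes. In the focal adhesion list the talin gene TLN2 fell by 0.40 ± 0.05 on the log2 scale (edgeR adjusted p 1.56e-06) and the SRC-family kinase FYN rose by 0.21 ± 0.05 (0.00945). In the endocytic list EPS15, a clathrin-pit scaffold, rose by 0.16 ± 0.04 (0.0276). The TLN2 call held in all 11 alternative fits (edgeR or DESeq2 adjusted p up to 0.0393). That of FYN was lost in 5 of 11 (up to 0.354) and that of EPS15 in 6 of 11 (up to 0.666), both of them without the 48 hr control, the 96 hr control or the 48 hr total KD library, and EPS15 also without the 24 hr control. These 3 were the only genes that passed in edgeR over the 6 lists and the 4 knockdown comparisons; the other lists held 25 tested STE20 kinases, 20 genes of the MAP3K group, 18 of the JNK and p38 arm and 21 of the Hippo pathway.

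Among 75 tested exons of the listed genes, 2 fell in total KD (2.67%, beside 1.38% of all tested exons), both in NF2, the merlin gene upstream of STK3 in the Hippo pathway; they were singled out after their values were seen. They start at the same base of chromosome 22, 29683020, and overlap, with lengths of 45 and 60 nt. The 45 nt form fell by 27.6 ± 11.4 points in total KD (n = 2 sets, edgeR adjusted p 0.00526). With N-long KD it fell by 26.0 ± 7.28 (n = 3, edgeR 0.00622). The total KD call was lost in 5 of 13 alternative fits (adjusted p 0.00482 to 0.550), among them limma (0.279) and those without the 48 hr control (0.117) or the 48 hr total KD library (0.323). The N-long call was lost in 7 of 14 (0.00525 to 0.570), among them limma (0.570) and those without the 48 hr control (0.176), the 96 hr control (0.0654) or the 48 hr N-long library (0.145). The 60 nt form also passed (edgeR adjusted p 0.0136 in total KD and 0.0205 with N-long KD), but it is no separate measurement. Over the 14 treated libraries the junction into both forms held 19 to 43 reads, and the junction out of the 45 nt form 16 to 39. The junction out of the 60 nt form held 0 to 4 and was at 0 in 9 libraries, so its inclusion value rests on reads shared with the 45 nt form. An AP2M1 exon of 97 nt also passed with N-long KD (edgeR 0.0200; -63.6 ± 55.4 points, n = 3), but this value is not a measure of inclusion. The junction into it is shared with an exon of 6 nt, and it is listed with 342 to 892 reads in 8 libraries and absent from the other 11, while the smallest anchor (bases aligned beside a junction) listed in any file is 8 nt. None of the 22 member exons had an inclusion junction at 0 beside a partner with 20 or more reads in any library.

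The third question was time under doxycycline, where the 48 hr libraries stood apart. Between 96 and 48 hr 8 of 22 member exons passed the edgeR test, 6 higher and 2 lower at 96 hr, beside 15.3% of all tested exons; limma on log2 ratios called 0 of the 22 and 48 exons in all. The 2 further contrasts were added after the values were seen, and there 6 passed at 48 hr against 24 hr (2 higher, 4 lower; background 11.8%) and 0 at 96 hr against 24 hr (0.489%; 2 at an unadjusted p under 0.05, limma 0). The 24 hr libraries come from other library series than those of 48 and 96 hr, and each time point of the latter is 1 set, so time and set cannot be told apart.

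MAP3K7 81 nt was higher at 48 hr. It was then included in 32.6% of reads in control and 28.9% in total KD, with 35.8% and 31.9% in N-short and N-long KD. In the same order the values at 96 hr were 5.26%, 6.98%, 10.2% and 12%. The 10 libraries of 24 and 96 hr lay between 5.26% and 12.5%, so the groups did not overlap. At 96 hr it was lower than at 48 hr by 23.7 ± 3.36 points (SD, n = 4 knockdown states), in 4 of 4, with an edgeR adjusted p of 1.97e-08 and a limma adjusted p of 0.0513. HUES66 wild type, A375 and HEK293 gave 6.57%, 3.51% and 4.08%. MAP3K7 116 nt was nearly always included, at 99.2% to 100% at 48 hr and 95.3% to 99.2% in the other 10 libraries, and was lower at 96 hr by 2.68 ± 1.39 points (edgeR adjusted p 0.00746).

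TNIK 24 nt moved the other way. Inclusion at 48 hr was 19.4% in control and 20.3% in total KD, with 14.7% and 14.1% in N-short and N-long KD, and 48.2%, 37.6%, 51.9% and 41.5% in the same order at 96 hr. The rise of 27.7 ± 8.11 points (n = 4) had an edgeR adjusted p of 1.01e-06 and a limma adjusted p of 0.0561. At 24 hr the first replicate gave 35.0% to 49.5% and the second 29.9% to 32.1%, all above 48 hr but apart from each other.

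In MAP4K4 the 231 nt exon stood at 6.49% to 11.8% at 48 hr and 17.9% to 29.7% in the other 10 libraries, without overlap. In the order control, total KD, N-short KD and N-long KD it measured 11.8%, 8.22%, 6.49% and 10.96% at 48 hr and 28.8%, 20.6%, 24.7% and 27.4% at 96 hr, and was higher at 96 hr by 16 ± 2.53 points (n = 4, edgeR adjusted p 7.63e-05). It shares its skipping junction with the 162 nt exon, which ranged from 21.7% to 31.9% over the 14 libraries and was not called. MAP4K4 192 nt was higher at 96 hr by 5.95 ± 2.21 points (n = 4, 0.00127), with 7.22% to 13.95% at 48 hr overlapping the 12.6% to 17.6% of the rest. The 9 nt microexon was not called, at -4.53 ± 4.86 points.

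PTK2 89 nt, a non-coding exon from 140925661 to 140925749 that shares its skipping junction with 3 other exons of the 5′ end, was higher at 96 hr by 14.6 ± 1.94 points in 4 of 4 knockdown states (edgeR adjusted p 0.000145). In the same order it measured 40.1%, 40.2%, 33.5% and 32.3% at 48 hr and 52.4%, 54.2%, 50.4% and 47.4% at 96 hr. Its second 24 hr replicate, at 37.9% to 44.6%, overlapped the 32.3% to 40.2% of 48 hr, while the first lay at 48.3% to 50.9%. PTK2 9 nt was higher at 96 hr by 10.2 ± 8.17 points in 3 of 4 states (0.00556), a call lost in 5 of 13 alternative fits (0.000417 to 0.290), among them those without the 48 hr control (0.0802) or the 96 hr control (0.0804). MINK1 24 nt had 0 inclusion reads among 23 to 34 reads in each 48 hr library and 0, 4, 3 and 1 in control, total KD, N-short KD and N-long KD at 96 hr. Its edgeR adjusted p of 0.0325 was lost in 8 of 12 alternative fits (0.0326 to 0.155), among them those without any 1 of the 6 knockdown libraries, and no fold is given against a group at 0.

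**Figure D3:**
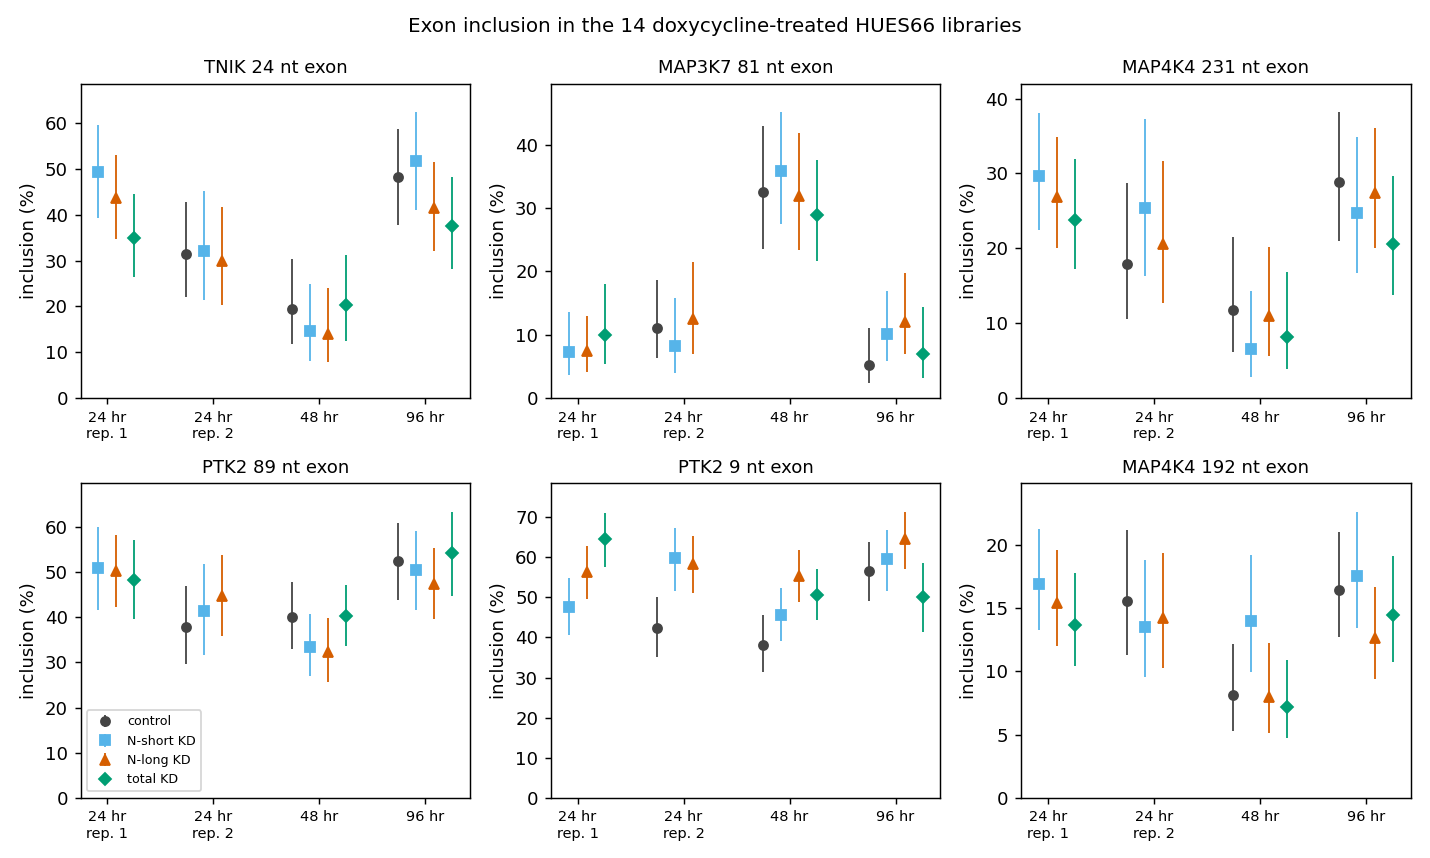
Percent inclusion (vertical axis) with 95% Wilson intervals of 6 exons in the 14 treated libraries, by library set (horizontal axis) and knockdown (colour and shape). For MAP3K7 81 nt the 48 hr libraries lie at 28.9% to 35.8% and all others at or below 12.5%; TNIK 24 nt and MAP4K4 231 nt are lowest at 48 hr.

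At gene level 6 of 8 members passed between 96 and 48 hr in edgeR, beside 59.2% of 13415 genes, so the share of members is near that of all genes, and DESeq2 also called 6. TNIK was 123 to 131 CPM at 48 hr, 226 to 238 at 96 hr and 179 to 222 at 24 hr, a log2 change of 0.87 ± 0.03 (SE) from 48 to 96 hr (edgeR adjusted p 1.2e-16). MAP4K4, at 428 to 440 CPM at 48 hr and 598 to 612 at 96 hr, rose by 0.47 ± 0.03 (4.14e-14), and AAK1 rose by 0.46 ± 0.06 (6.69e-07). STK3 fell by 0.44 ± 0.07 (2.82e-06), PTK2 fell by 0.20 ± 0.03 (2.5e-07) and SLK fell by 0.20 ± 0.05 (0.00134). MINK1 and MAP3K7 were not called.

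Between 48 and 24 hr 6 of 8 passed (background 52.3%) and between 96 and 24 hr 5 of 8 (26.7%). The latter count was 3 with DESeq2, 2 with no replicate block and 3 to 4 with 1 library left out; it was 3 without the 96 hr control, the 96 hr total KD, the first 24 hr total KD or the second 24 hr N-short library. The MAP3K7 call was lost in 10 of 14 alternative fits and that of SLK in 9 of 14. The 2 replicates of 24 hr differed from each other by as much in some genes. STK3 lay at 24.7 to 28.4 CPM in the first and 36.5 to 37.7 in the second, SLK at 77.1 to 84.9 and 99.6 to 106, and PTK2 at 437 to 446 and 500 to 517, without overlap. TNIK and MAP4K4 were lower at 48 hr than in any library of either 24 hr replicate. Pluripotency markers summed to 3852 to 4028 CPM at 48 hr, 3396 to 4361 at 24 hr and 4382 to 5227 at 96 hr, and early differentiation markers to 0.736 to 1.53, 0.594 to 1.75 and 0.923 to 2.72. The melanoma and neural crest list summed to 129 to 134 CPM at 48 hr, 110 to 132 at 24 hr and 85.7 to 94.0 at 96 hr, with MLANA and TYR at 0, so 96 hr did not overlap the other times. The HEK293 list lay at 9.89 to 13.2 CPM at 48 hr and within 9.20 to 13.1 in the libraries of 24 and 96 hr. The part of these markers in the differences was not tested.

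**Figure D4:**
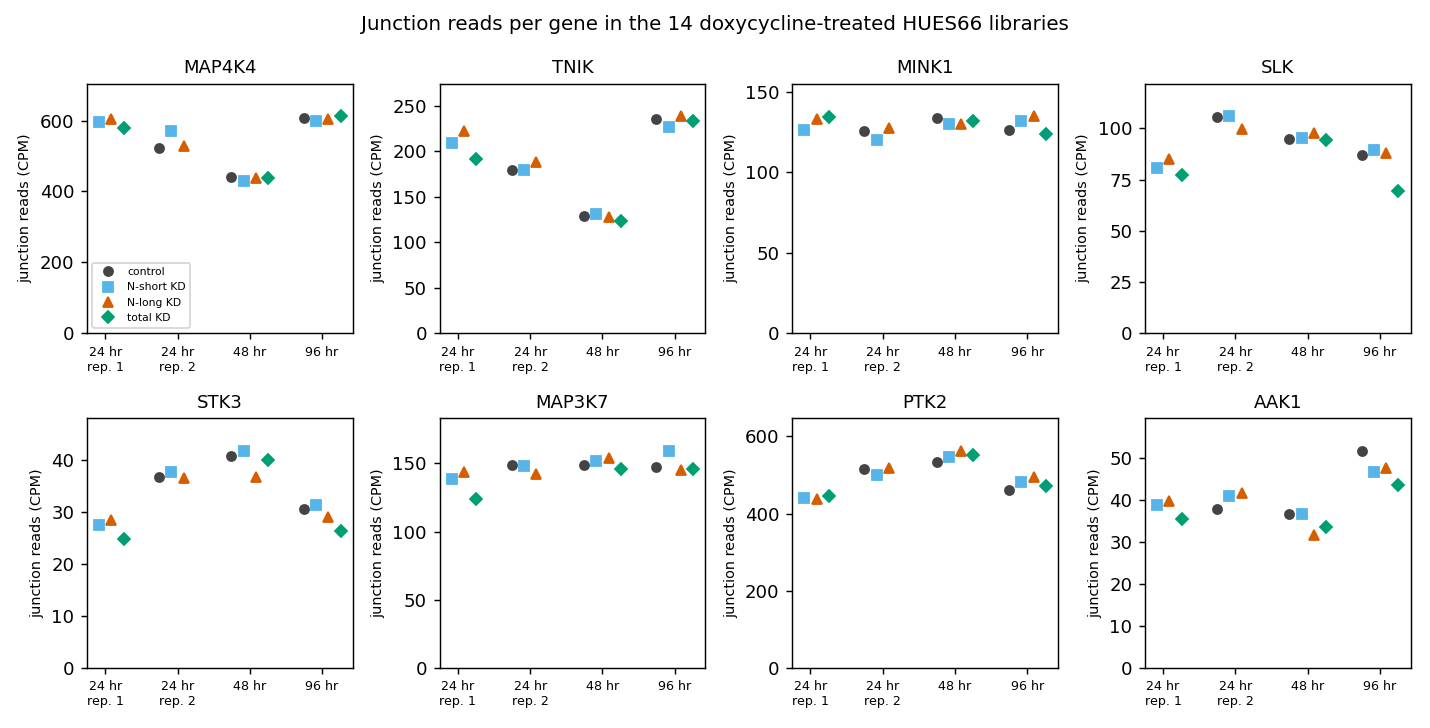
Normalised junction reads per gene (vertical axis, CPM) in the 14 treated libraries, by library set (horizontal axis) and knockdown (colour and shape). TNIK and MAP4K4 are lowest at 48 hr in all 4 knockdown states, and STK3, SLK and PTK2 differ between the 2 replicates of 24 hr.

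Of 117 listed pathway genes tested, 26 rose and 42 fell from 48 to 96 hr. That is 58.1% of them, near the 59.2% of all genes, with the MAP3K group at 2 up and 8 down (median log2 change -0.17, beside -0.01 over all genes) and the endocytic list at 7 up and 2 down (median 0.09). Of 75 listed exons 8 rose and 5 fell in that comparison, or 17.3%, near the 15.3% of all tested exons.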

How the data were processed

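Each deposited junction table holds the authors' raw counts of spliced reads per junction, as its whole-number values show. The submitters' processing notes name STAR 2.7.1, SAMtools 1.9 and hg38; junction filters are not given in the sources used here. The authors also deposited 9 tables of splicing events, whose inclusion difference (control minus knockdown) and p-values are their own; 69 per-library columns there were not used.

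Junctions were matched to GENCODE 29 introns (96.7% to 98.3% of reads). Reads of 1 gene were summed. Inclusion reads of an exon of at most 1000 nt are the rounded mean of its 2 inclusion junctions, and inclusion is their percent of inclusion plus skipping reads on the strongest skipping junction. The test took exons averaging 20 reads or more with 2% to 98% pooled inclusion. edgeR 4.0.16 in R 4.3.3 (quasi-likelihood, TMM, filterByExpr) fitted the 14 treated libraries with library set and knockdown, or the 8 libraries of 48 and 96 hr with knockdown and time, with Benjamini-Hochberg adjustment within each contrast at 0.05. limma 3.58.1 (0.5 added) and DESeq2 1.42.0 were alternatives. For knockdown against control, differences in points average only the sets that hold both groups. They rest on fewer libraries than the fits. After removal of knockdown means, the median residual r was 0.64 over 18 library pairs within a set, against -0.21 over 55 pairs across sets, so sets were kept as a block. Single libraries carry 95% Wilson or exact intervals, and a count of 0 allows 3 counts; both cover counting error only.

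Members, gene lists and markers were chosen with earlier results of these data known. Exons given library by library passed in any of 5 contrasts or differed by 20 points between lines; the other exons are given by range and count, some with a difference chosen after their values were seen. Genes of a list are named where they passed in total KD. The exon tests were tested on simulated data under 2 noise models, the second chosen after the first gave few calls, and under both most altered exons went uncalled; an exon without a call is thus not shown to be unchanged. Code ran in Python 3.11.15 with numpy 2.4.6, pandas 2.3.3, scipy 1.17.1 and matplotlib 3.10.9. No genome sequence was used, so intron motifs were not analysed here.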

Additional observations from a re-analysis of the deposited data

Results flagged for a closer look

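Within the N-short and N-long groups of 4 libraries, 40 sets of values were checked for a library far from the other 3, and 4 stood out. A rate of about 1 in 20 holds only where libraries differ by chance alone. The libraries of a group come from different library sets and the same libraries are used repeatedly, so the count is not compared with chance. In N-short KD the 48 hr library had an inclusion of 35.8% for MAP3K7 81 nt, with the others at 7.21% to 10.2%, and 428 CPM for MAP4K4, with the others at 570 to 598. In N-long KD the 48 hr library had 100% for MAP3K7 116 nt, with the others at 97.1% to 97.2%. The N-long library of 96 hr had 5.0% for MINK1 24 nt, which rests on 1 inclusion read of 20, with the others at 0. In 3 of the 4 the library is that of 48 hr, whose values for these features lay outside those of 24 and 96 hr in every knockdown state. For MAP3K7 116 nt the margin was narrow, with 99.25% the lowest at 48 hr and 99.16% the highest at 24 and 96 hr.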

How the results depend on the processing

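The N-long count of 1 member exon became 0 with limma on log2 ratios, with no replicate block, with at least 50 reads, with at least 5 reads and any inclusion, and with the 48 hr set left out (chosen after seeing the data), and ran from 0 to 1 when single libraries were left out. The total KD count of 0 ran from 0 to 1. The 96 against 48 hr count of 8 exons became 5 with at least 5 reads and any inclusion and 0 with limma, and ran from 7 to 8; the cause was not tested. The count of 6 exons at 48 against 24 hr ran from 4 to 7. With no replicate block it was 7 exons at 96 against 48 hr. The gene count of 5 at 96 against 24 hr became 3 with DESeq2 and 2 with no replicate block, and ran from 3 to 4; at 48 against 24 hr the gene count of 6 ran from 4 to 6. The other member counts stayed within 1.5 times. Over all features, exons called fell with limma from 90 to 12 in total KD, 39 to 0 in N-long KD, 28 to 0 in N-long against N-short KD, 999 to 48 at 96 against 48 hr, 770 to 416 at 48 against 24 hr and 32 to 1 at 96 against 24 hr. With single libraries left out, exons called ran from 41 to 95 in total KD (41 without the 48 hr total KD library), 22 to 38 in N-long KD (22 without its 48 hr library), 13 to 30 in N-long against N-short KD (13 without the 48 hr N-short library) and 509 to 707 at 48 against 24 hr (509 without the 48 hr N-long library), and genes in total KD from 162 to 333 (162 without the 96 hr control). With no replicate block genes went from 300 to 62 in total KD and 3638 to 1115 at 96 against 24 hr, and exons from 39 to 20 in N-long KD; without the 48 hr set total KD gave 127 genes and 39 exons, and with HUES66 wild type among the controls 536 genes. With at least 5 reads and any inclusion, exons called were 50 in total KD, 14 in N-long against N-short KD, 557, 351 and 16 in the 3 time comparisons in that order. With no replicate block they were 15 in N-long against N-short KD and 9 at 96 against 24 hr, and without the 48 hr set 19 in N-long KD and 14 in N-long against N-short KD. The N-short count of 1 exon lay between 0 and 4. With no filter on low reads genes called went from 3 to 16 in N-long KD, 2 to 17 in N-long against N-short KD and 0 to 4 in N-short KD, where DESeq2 called 2. No called exon or gene changed direction under any alternative run. Counting all junctions at or over an exon moved 1 of 60 inclusion values of single libraries beyond its interval, PTK2 89 nt in A375 cytoplasm (43.9%). Exons with few reads, such as MINK1 24 nt, limit what depth can show.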

Other observations

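Junctions within the 8 genes that GENCODE 29 does not annotate took 0.276% of the gene's reads in SLK and 4.16% in AAK1, the extremes of the 8. The most used one lay in MINK1, chromosome 17 from 4893598 to 4893990, with 348 reads over all 19 libraries. An unannotated MAP4K4 junction on chromosome 2 from 101856139 to 101859642 had 0 reads in each of the 3 A375 libraries, 14 in HEK293 and 22 in HUES66 wild type. In the treated HUES66 libraries it had 3, 1, 2 and 0 reads in control, total KD, N-short KD and N-long KD at 48 hr, and 9, 4, 5 and 5 at 96 hr. These counts were singled out after they were seen, and no test was made of them.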
